A study of Rattus norvegicus with 232 samples.

Results

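Voltage-gated calcium and sodium channel genes are described here in whole brains of the Hybrid Rat Diversity Panel, a set of inbred rat strains. The members are the genes of the RefSeq gene table whose symbol begins with Cacna1, Cacna2d, Cacnb or Cacng, or with Scn followed by a digit. This rule took 40 of 20859 genes and used no measured value. RNA came from whole brain of untreated rats (from one side of the sagittally split brain by the study's methods), male wherever the labels give a sex, and the libraries were ribosomal RNA-depleted, stranded total RNA libraries. The table held 214 libraries of 197 animals from 74 strains. Strains with 2 or more animals entered the tests, which left 192 animals of 69 strains, namely 30 HXB/BXH recombinant inbred strains (derived from BN-Lx/Cub and SHR/OlaIpcv), 16 FXLE/LEXF recombinant inbred strains (derived from F344/Stm and LE/Stm) and 23 other inbred strains, with BN-Lx/Cub, SHR/OlaIpcv and F344/Stm among them (LE/Stm had 1 animal). Each strain is isogenic and rests on 2 or 3 animals, and whole brain mixes all regions and cell types, so that fewer cells of a type and less RNA per cell cannot be told apart.

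Calcium channels are built around a pore-forming alpha1 subunit. The L-type genes (Cav1) couple depolarization to calcium entry at cell bodies and dendrites, the Cav2 genes (P/Q-, N- and R-type) drive transmitter release, and the T-type genes (Cav3) open near resting potential and carry burst firing of thalamic neurons. The alpha2delta, beta and gamma subunits set trafficking and gating, and several gamma genes (transmembrane AMPA receptor regulatory proteins, TARPs) serve AMPA receptors instead. Sodium channels have one pore-forming alpha subunit that carries the action potential upstroke, with beta subunits that tune gating and adhesion. WAG/RijCrl is a WAG/Rij rat, an inbred line known for spontaneous absence seizures, in which T-type, HCN and sodium channel genes have been followed as candidates.

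Sequence upstream of the start site is shown for the 5 members above the table median level with the strongest strain effect. RefSeq (build GRCr8) held promoters for 27 of the 40 members. The 250 bases before the annotated start are printed 5′ to 3′ on the gene's strand, with the letters GGGCGG (GC box) in capitals in either orientation, overlapping matches included, and these coordinates belong to GRCr8 and not to the build of the expression tables.
Cacna1e (chr13:69444811-69445060, minus strand): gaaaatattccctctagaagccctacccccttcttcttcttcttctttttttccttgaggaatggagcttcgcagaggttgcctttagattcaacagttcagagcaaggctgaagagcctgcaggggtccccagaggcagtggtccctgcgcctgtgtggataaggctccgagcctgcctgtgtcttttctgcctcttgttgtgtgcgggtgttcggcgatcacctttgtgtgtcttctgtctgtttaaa
Cacng5 (chr10:93336668-93336917, minus strand): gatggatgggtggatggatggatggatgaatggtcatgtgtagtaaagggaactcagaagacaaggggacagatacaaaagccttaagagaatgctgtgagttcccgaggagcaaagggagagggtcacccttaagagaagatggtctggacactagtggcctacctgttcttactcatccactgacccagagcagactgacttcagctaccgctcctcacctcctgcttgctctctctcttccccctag
Cacna2d3 (chr16:4918900-4919149, minus strand): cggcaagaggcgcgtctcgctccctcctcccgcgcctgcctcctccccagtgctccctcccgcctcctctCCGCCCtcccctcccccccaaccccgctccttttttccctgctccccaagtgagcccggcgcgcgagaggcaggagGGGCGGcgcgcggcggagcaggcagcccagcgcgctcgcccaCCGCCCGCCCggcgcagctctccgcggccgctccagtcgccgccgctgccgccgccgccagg
Scn8a (chr7:133860977-133861226, plus strand): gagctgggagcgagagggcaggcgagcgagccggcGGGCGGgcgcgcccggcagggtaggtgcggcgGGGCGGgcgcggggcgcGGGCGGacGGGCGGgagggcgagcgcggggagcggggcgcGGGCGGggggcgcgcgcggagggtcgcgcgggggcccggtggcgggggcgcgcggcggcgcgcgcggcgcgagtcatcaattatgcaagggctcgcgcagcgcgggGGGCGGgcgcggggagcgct
Scn2a (chr3:70710706-70710955, plus strand): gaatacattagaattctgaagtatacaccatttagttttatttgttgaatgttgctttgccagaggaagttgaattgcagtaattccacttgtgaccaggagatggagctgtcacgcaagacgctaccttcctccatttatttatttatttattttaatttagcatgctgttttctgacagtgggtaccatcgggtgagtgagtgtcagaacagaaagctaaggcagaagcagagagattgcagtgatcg
The 5 windows differed in base composition, from 39.6% G and C in Scn2a, 51.2% in Cacna1e and in Cacng5 and 78.8% in Cacna2d3 to 86% in Scn8a. Scn8a held 6 GC boxes and Cacna2d3 held 4, while these letters were not in the Scn2a, Cacna1e and Cacng5 windows. GC boxes stood in 15 of the 30 windows of the members and in 30.5% of all 33469 windows of the RefSeq table. The letters TATAAA stood in 2 of the 30 (12.9% of all), and TGACGTCA in 0 of the 30 (1.59% of all).

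The values are log2 expression levels scaled across libraries by the authors. Read totals are not in the tables used, so depth is unknown, and the number of animals limits the precision. Library medians ran from 8.18 to 8.42. The neuronal markers Snap25, Syt1, Rbfox3 and Tubb3 were high in every library (lowest 14.84, 14.76, 11.37 and 12.29). In 10 libraries the mean of 5 liver genes was more than 2 log2 above the median of 7.69, with the highest, 18.27, in the single LE/Stm library. The 3 LEW/Crl libraries had a mean level of the Y-linked genes Eif2s3y and Kdm5d of 9.49 to 9.58 (median of the other strains' libraries 10.63), and only 1 other library was at or below that range. Below, the libraries that stand apart are the 10 with high liver genes and the 3 LEW/Crl libraries. Several libraries came from 1 animal in 3 cases, among them 12 libraries of SHR/OlaIpcv animal 1.

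The differences between strains in the channel genes were close in size to those of all genes. The ratio of the highest to the lowest strain mean ran from 1.21-fold in Cacng1 to 2.00-fold in Cacng8, with a median of 1.44-fold, and was below 1.5-fold in 24 of the 40 members. The SD of the 69 strain means had a median of 0.11 log2 over the members (0.12 over all genes). The within-strain SD between single animals had a median of 0.16 over the members and 0.16 over all genes; averaging 2 or 3 animals lowers the former SD, so the 2 kinds of SD were not compared. The SD over the 12 repeat libraries of SHR/OlaIpcv animal 1, each a single library, was set against the SD of strain means over 2 or 3 animals. It was higher in 35 of the 40 members (87.5%) and in 85.2% of all genes, but averaging lowers the latter SD. Against the within-strain SD between single animals it was higher in 20 of the 40 members. The 12 include the batch 11 library, which had high liver genes (12.90). Over the 6 libraries of animal 4 the members went both ways. That SD was below the SD of the strain means in Cacna1e (0.06 against 0.08) and Scn8a (0.05 against 0.08), and above it in Cacng7 (0.20 against 0.13). R2, the share of variance between strains and the study's measure of broad-sense heritability, ran from 0.332 in Scn10a to 0.584 in Cacna1e. Its median was 0.445 over the members and 0.434 over all genes, where 0.356 is the mean value expected with no strain effect.

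By limma's moderated F-test with Benjamini-Hochberg adjustment over all genes, 13 of the 40 members passed a 5% false discovery rate (FDR), or 32.5%, and 36.8% of all genes did. Of 32 members, 26 passed in the version 5 table (81.2%, with 63.6% of all genes), which held 132 animals for this test against 192. The version 6 table had 13 of 35 members past this rate (37.1%, with 31.7% of all genes). The reconstruction table had 9 of 35 (25.7%, with 20.6%). The members' share thus lay below that of all genes in the RefSeq gene table and above it in each of the alternative tables. Among the 28 members above the table median level, 10 passed, and 33.7% of all genes above it did. By class, the called members were 3 of 3 Cav2 pore genes, 2 of 4 Cav1 pore genes, 0 of 3 T-type pore genes, 1 of 4 alpha2delta genes, 0 of 4 calcium channel beta genes, 2 of 8 gamma genes, 4 of 10 sodium channel pore genes and 1 of 4 sodium channel beta genes. Several of these calls were lost in other settings (limma adjusted p in each). In the reconstruction table Cacna1a (0.121), Cacna1b (0.198), Cacna1d (0.0618) and Cacng7 (0.0607) did not pass, in the version 6 table Cacna1a (0.0585) and Cacna1d (0.0969), in the version 5 table Cacng7 (0.0628), without libraries that stand apart Cacna1b (0.0591), Cacna1d (0.0630) and Scn4b (0.0615), and with only strains of 3 animals Cacna1b (0.0518) and Cacng7 (0.143). With sequencing batch as a covariate and 1 library per animal, 28 of the 40 members (70%) and 56.1% of all genes passed. Batch numbers, here and below, were read from the library names. For some libraries the sample title gives another sequencing batch, which was not used. Leaving out replicate 1, 2 or 3 left 3, 3 and 7 called members, with 15.7%, 14.9% and 29.3% of all genes.

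**Figure D1:**
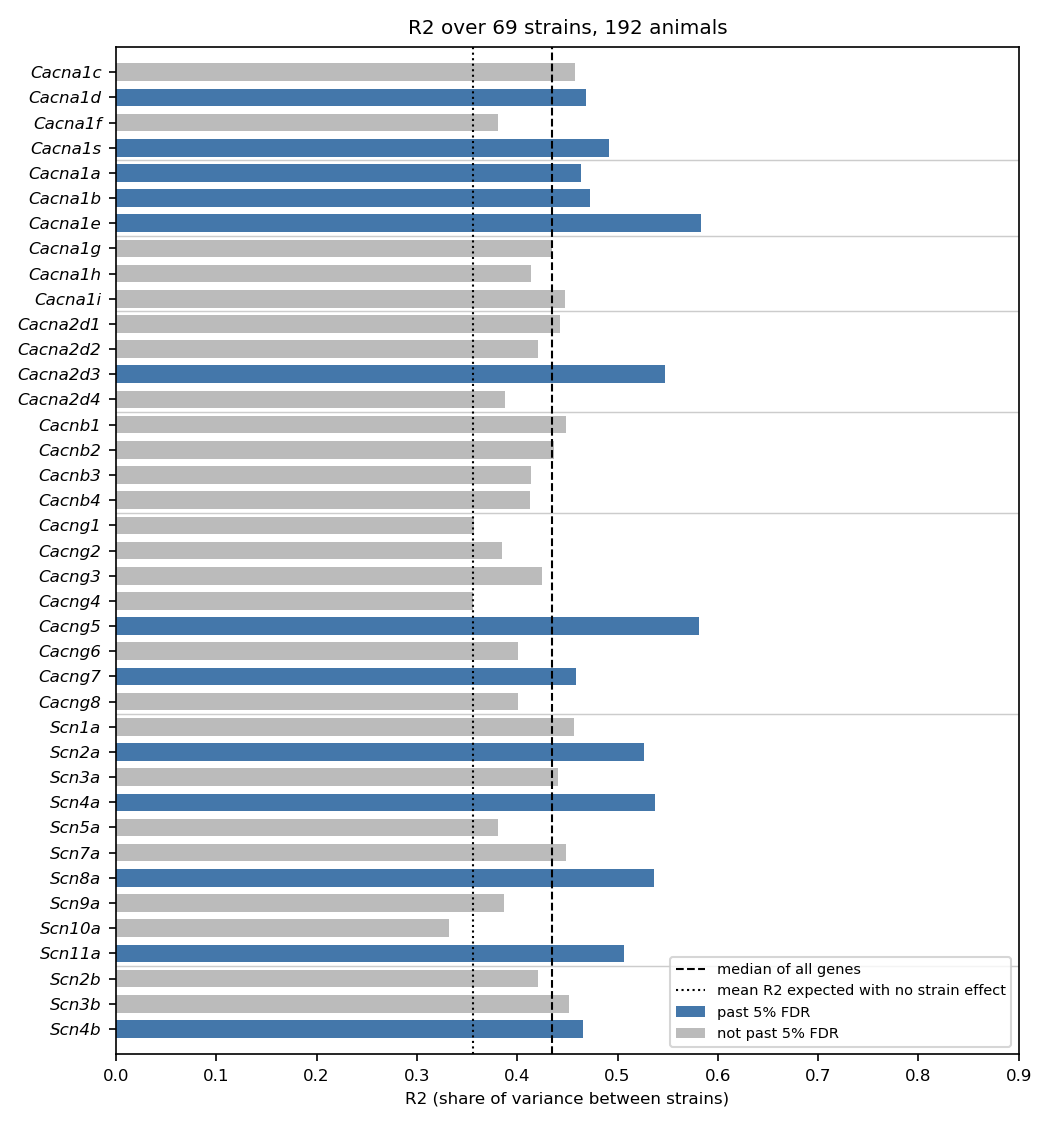
R2 over 69 strains (horizontal axis, share of variance between strains) for 39 of the channel genes grouped by subunit class, with the 13 genes past 5% FDR in blue. The bars lie between 0.332 and 0.584, around the dashed line at the median of all genes, 0.434.

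Among the Cav2 pore genes, Cacna1e (R-type) had the highest R2 of all members. Its level was lowest at 13.60, 13.90 in the median and highest at 14.13 over the animals. The 3 BXH13/Cub animals were highest by strain mean with 13.98, 14.13 and 14.06, and the 2 SHR/OlaIpcv animals lowest with 13.81 and 13.63 (R2 0.584, limma F-test adjusted p = 0.000102). Here and below, the highest and lowest strains were picked as the extremes of the 69 means. The value 13.81 is a mean of 12 libraries, which ran from 13.66 to 14.10. It did not pass without replicate 2 (limma adjusted p = 0.0598). Cacna1b (N-type) had its highest strain mean in LEXF5/Stm, 12.45 ± 0.23 (SD, n = 2), and its lowest in SHR/OlaIpcv, 12.04 ± 0.07 (SD, n = 2; R2 0.473, adjusted p = 0.0379). Cacna1a (P/Q-type, mutated in absence seizure mice) ran from 12.29 ± 0.26 (SD, n = 3) in BN-Lx/Cub to 12.75 ± 0.08 (SD, n = 3) in HXB17/Ipcv (R2 0.464, adjusted p = 0.0419). As 3, 3 and 7 of the 40 members passed without replicate 1, 2 and 3, the calls of Cacna1b and Cacna1a are not shown to hold there.

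Of the L-type genes, Cacna1d (Cav1.3) passed with its highest mean in COP/CrCrl, 11.43 ± 0.13 (SD, n = 2), and its lowest in HXB18/Ipcv, 11.07 ± 0.10 (SD, n = 3; R2 0.468, adjusted p = 0.0477). Cacna1c (Cav1.2) did not pass (R2 0.458, adjusted p = 0.0586). Cacna1s, the skeletal muscle pore gene, passed at a low level (mean 4.78, adjusted p = 0.0100), while 4 of 5 skeletal muscle markers were in the table with a mean between 3.98 and 4.68 per animal. Cacna1f, the retinal pore gene, was at 2.35 in the mean and did not pass (adjusted p = 0.330).

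The T-type genes varied most in size among the pore genes above the table median, without passing. Cacna1h ran from 9.63 in HXB10/Ipcv to 10.54 in LEXF5/Stm, a ratio of 1.88-fold, with a within-strain SD of 0.26 and an SD of 0.32 over the 12 repeat libraries (R2 0.414, adjusted p = 0.164). Cacna1g and Cacna1i had R2 of 0.435 and 0.447 (adjusted p = 0.0975 and 0.0662).

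Among the auxiliary calcium channel subunits, Cacna2d3 was steady between animals of a strain (within-strain SD 0.08). The 3 SR/JrHsd animals were highest by strain mean with 12.52, 12.51 and 12.49, and the 2 COP/CrCrl animals lowest with 12.09 and 12.20 (R2 0.547, adjusted p = 0.00184). It did not pass without replicate 1, 2 or 3 (limma adjusted p = 0.152, 0.156 and 0.149). Cacna2d1 and Cacna2d2, both bound by gabapentinoids, had R2 of 0.443 and 0.421 (adjusted p = 0.0906 and 0.157). Cacnb4, the beta subunit mutated in lethargic mice, had an R2 of 0.413 (adjusted p = 0.188). Cacng5, a TARP gene, was highest in BXH13/Cub, where the 3 animals had 9.80, 9.74 and 9.76, and lowest in LEXF6B/Stm, where the 2 animals had 9.21 and 9.32 (R2 0.581, adjusted p = 6.06e-05). It did not pass in the reconstruction table (R2 0.476, limma adjusted p = 0.0770) or without replicate 3 (adjusted p = 0.0931). Cacng7 passed narrowly (R2 0.459, adjusted p = 0.0463), and Cacng2 (stargazin, mutated in stargazer mice with absence seizures) did not (R2 0.384, adjusted p = 0.333).

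Among the sodium channel pore genes, Scn8a (Nav1.6, the main channel of mature nodes and initial segments) was highest in LEXF5/Stm, with 13.89 and 14.10 in the 2 animals, and lowest in SHRSP/A3NCrl, with 13.60 and 13.64 (R2 0.537, adjusted p = 0.00261). Scn2a (Nav1.2) was highest in BN-Lx/Cub, with 14.52, 14.31 and 14.28 in the 3 animals, and lowest in HXB1/Ipcv, with 13.85, 13.85 and 14.17 (R2 0.527, adjusted p = 0.00330). Both pairs of strains were picked as the extremes of the 69 means, so the distance between their animals is no further support. Scn8a did not pass without replicate 1, 2 or 3 (limma adjusted p = 0.164, 0.0924 and 0.102), nor Scn2a without replicate 1 or 2 (0.0902 and 0.683). Scn1a (Nav1.1, the main channel of fast-spiking interneurons) and the neonatal Scn3a did not pass (R2 0.457 and 0.440, adjusted p = 0.0582 and 0.122). The low-level Scn4a (skeletal muscle) and Scn11a (sensory neurons) passed with means of 5.67 and 4.09 (adjusted p = 0.000750 and 0.00525). For Scn11a, the 5 markers of peripheral sensory neurons and nerve had a mean between 5.33 and 6.15 per animal. Of the beta subunits, Scn4b passed, lowest in BN-Lx/Cub with 11.98, 12.07 and 12.16 and highest in LEXF5/Stm with 12.45 and 12.80 (R2 0.465, adjusted p = 0.0381). These low members were named after their values were seen. In all, 12 members lay below the table median level of 8.32, of which 3 passed (25%, with 39.9% of all genes at or below that level), Cacna1s, Scn4a and Scn11a. Over all strains only 3, 3 and 7 of the 40 members passed without replicate 1, 2 and 3. The calls of Scn4a, Scn11a and Scn4b rest on all animals and are not shown to hold in those settings.

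**Figure D2:**
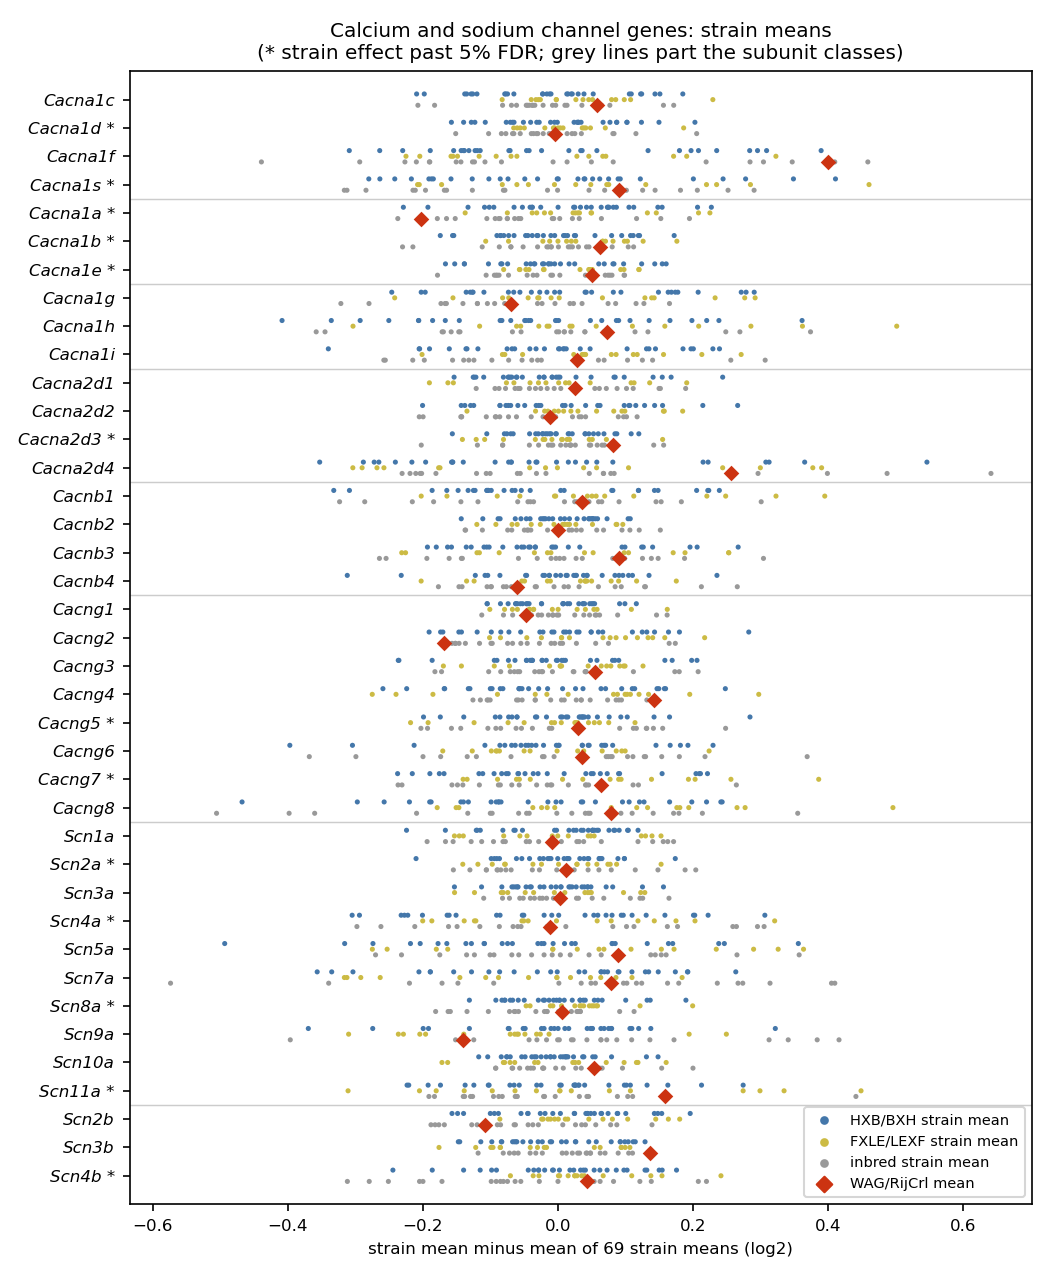
Strain means of 39 of the channel genes as differences from the mean of the 69 strain means (horizontal axis, log2), coloured by panel, with WAG/RijCrl as red diamonds and an asterisk at genes past 5% FDR. Most points lie close to 0, and the WAG/RijCrl mean is the highest in Scn3b and among the lowest in Cacna1a and Cacng2.

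No member was called between the 3 animals of WAG/RijCrl and 7 inbred strains with animals in batches 15 to 17 (BN/NHsdMcwi, FHH/EurMcwi, GK/FarMcwi, LH/MavRrrc, M520/N, MWF/Hsd and PVG/Seac, 21 animals) in a limma contrast with 5% FDR, where 0.743% of all genes passed. Batches were matched only in part, since the WAG/RijCrl animals were in batches 15, 16 and 16, and 11 of the 21 comparison animals were in batch 17, which held no WAG/RijCrl library. With the animals of batch 16 alone (2 of WAG/RijCrl and 1 of each other strain) 0 members and 0.35% of all genes passed in limma, with a smallest adjusted p of 0.4662 among the members. At an unadjusted p under 0.05, 1 of the 40 members (12.2% of all genes) would pass, and the smallest adjusted p was 0.387. The 3 largest differences each way, none called, are given with their 95% intervals. Cacna1f was 2.68, 2.72 and 2.83 in the WAG/RijCrl animals, above all 7 strain means (1.91 to 2.65), with a difference of 0.41 (0.01 to 0.81). Scn11a was 4.34, 4.01 and 4.38 against strain means of 3.91 to 4.20 (0.22, -0.01 to 0.44), and Cacng4 was 8.15, 8.63 and 8.35 against 8.11 to 8.27 (0.20, -0.04 to 0.43, but -0.0115 in the reconstruction table).

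On the lower side, Cacna1a was 12.37, 12.33 and 12.26 in WAG/RijCrl, and all 3 animals lay below the 7 strain means (12.42 to 12.64). The difference was -0.18 (-0.36 to 0.00, limma adjusted p = 0.416), and WAG/RijCrl was number 67 of 69 strains from the highest. Cacng2 was 9.31, 9.63 and 9.50 against strain means of 9.59 to 9.82 (-0.20, -0.40 to 0.01), and Scn9a was 7.73, 7.24 and 7.75 against 7.56 to 8.02 (-0.19, -0.49 to 0.11). WAG/RijCrl ranked among the 5 highest strains in 2 members and among the 5 lowest in 2. Its mean lay above the mean of the strains in 28 of the 40 members and in 48.8% of all genes, with a median difference of 0.04 over the members. It was the highest strain in Scn3b, a beta subunit gene named for its rank, with 12.60, 12.59 and 12.49 and a difference from the 7 strains of 0.10 (-0.03 to 0.24).

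No T-type gene was called in WAG/RijCrl. Cacna1h was 9.77, 10.54 and 10.01 in its animals, against strain means of 9.86 to 10.10, with a difference of 0.15 (-0.17 to 0.47), so that the animals lay on both sides of those means. Cacna1g differed by -0.02 (-0.26 to 0.23) and Cacna1i by 0.11 (-0.13 to 0.35). The second animal was the highest of the 3 in all T-type genes. Scn1a differed by -0.10 (-0.26 to 0.07), Scn2a by -0.04 (-0.17 to 0.08), Scn3a by -0.03 (-0.16 to 0.09) and Scn8a by -0.01 (-0.12 to 0.10). Cacnb4 differed by -0.15 (-0.34 to 0.04), Cacna1c by 0.07 (-0.09 to 0.23), Cacna2d1 by -0.04 (-0.20 to 0.12) and Cacna2d2 by -0.01 (-0.19 to 0.18).

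**Figure D3:**
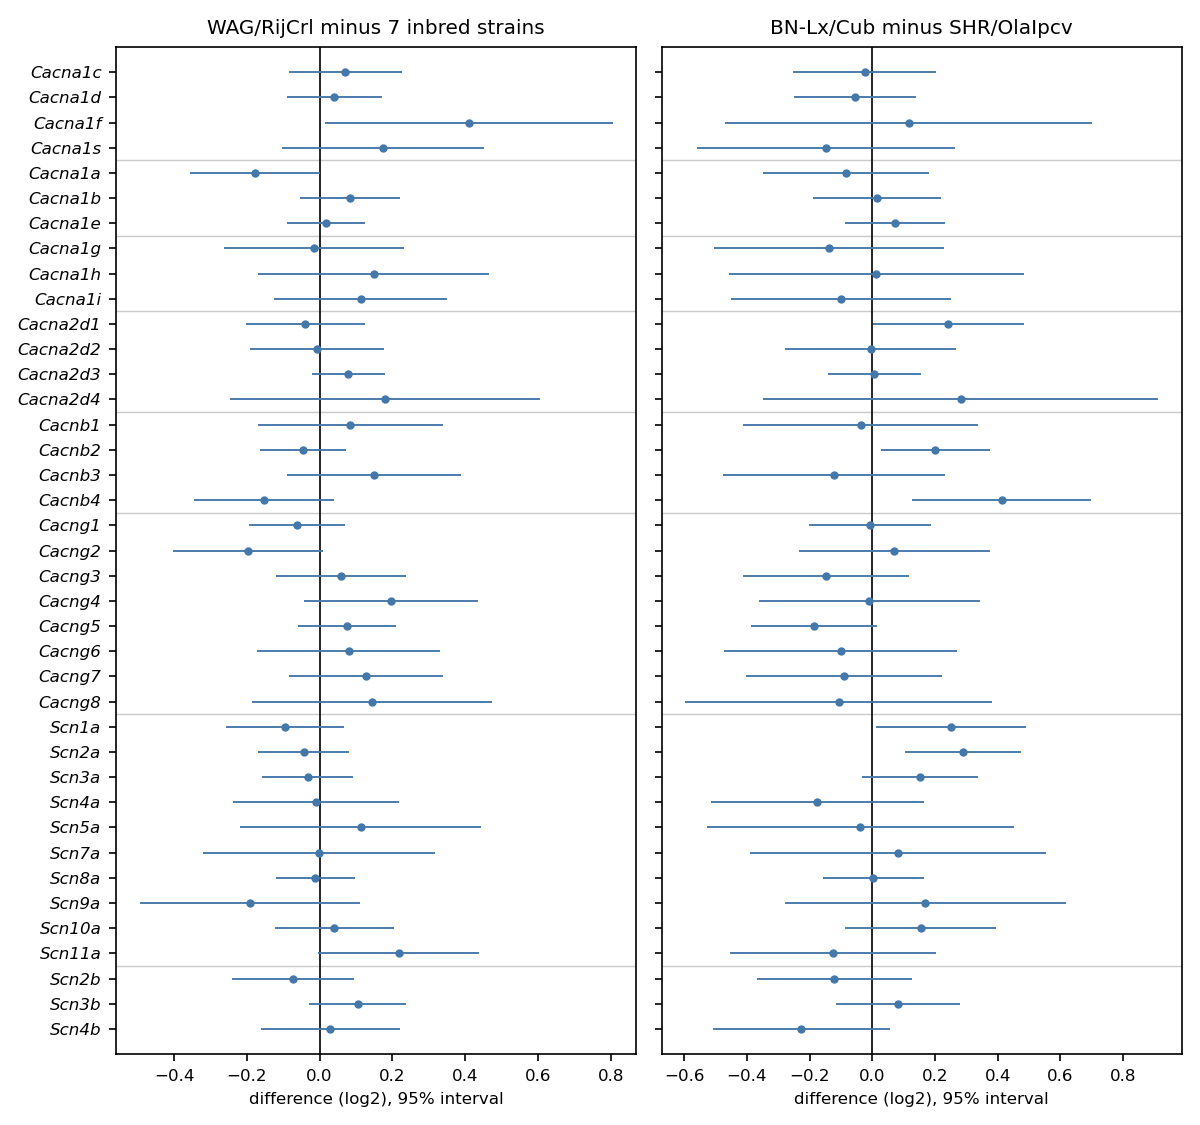
Differences in log2 level with 95% intervals (limma) for 39 of the channel genes, WAG/RijCrl against 7 inbred strains on the left and BN-Lx/Cub against SHR/OlaIpcv on the right. On the left nearly all intervals cross 0, and on the right the largest difference is that of Cacnb4, 0.41.

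The progenitors of the HXB/BXH family, BN-Lx/Cub (3 animals) and SHR/OlaIpcv (2 animals), differed in 0 of the 40 members at 5% FDR, where 4.51% of all genes passed. At an unadjusted p under 0.05, 5 members (19.2% of all genes) passed, all higher in BN-Lx/Cub: Scn2a, Cacnb4, Cacnb2, Scn1a and Cacna2d1. Scn2a was 14.52, 14.31 and 14.28 in BN-Lx/Cub and 14.10 and 14.06 in SHR/OlaIpcv, a difference of 0.29 (95% interval 0.10 to 0.47, limma adjusted p = 0.0527). The SHR/OlaIpcv values are means of 12 and 6 libraries, of which that of batch 11 reached 14.37. Cacnb4 was 13.78, 13.13 and 13.27 against 13.05 and 12.91, a difference of 0.41 (0.13 to 0.70, adjusted p = 0.0770). Single SHR/OlaIpcv libraries of Cacnb4 reached 13.48 (animal 1, batch 11) and 13.23 (animal 4, batch 15), above the 13.13 of BN-Lx/Cub animal 2. Scn2a passed without BN-Lx/Cub animal 2 (with Cacnb4, and 8.52% of all genes) or 3 (4.66%). In an alternative chosen after seeing the data, Scn2a passed without the SHR/OlaIpcv library of batch 11 (5.29%). Scn2a, Cacnb4 and Cacnb2 passed with sequencing batch as a covariate and 1 library per animal (7.51%). Keeping only libraries of both strains in the same batches left 1 SHR/OlaIpcv animal, so no count is given for that setting. No member passed with 1 library per animal (smallest limma adjusted p = 0.0884, 2.63% of all genes) or with the replicate block (0.334, 1.97%). None passed in the reconstruction table (0.438, 2.23%) or in the version 5 table (0.214, 4.37%). Without BN-Lx/Cub animal 1 the smallest limma adjusted p of any member was 0.477, and it was 0.219 and 0.390 without SHR/OlaIpcv animal 1 and 4. The mean of 5 markers of cerebellar cells was 11.54 in the library of BN-Lx/Cub animal 1, 10.45 in that of animal 2, 11.32 and 11.43 in those of animal 3, and between 10.83 and 12.05 in the SHR/OlaIpcv libraries, with 12.05 in batch 11. By strain it was 11.12 in BN-Lx/Cub and 11.15 in SHR/OlaIpcv, and its part in the difference was not tested. Other differences were 0.28 (-0.35 to 0.91) in Cacna2d4, -0.23 (-0.51 to 0.06) in Scn4b and -0.19 (-0.39 to 0.01) in Cacng5. Of these, Cacna2d4 turned to -0.10 with sequencing batch as a covariate, and Cacng5 to 0.11 in the reconstruction table and 0.15 in the version 5 table.

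Within the 30 HXB/BXH strains, 6 of the 40 members passed 5% FDR (88 animals, 19.1% of all genes): Cacna1e, Cacna1c, Scn4a, Cacna1s, Cacng5 and Cacna1i. Strain means of Cacna1e ran from 13.73 in HXB7/Ipcv over a median of 13.88 to 14.06 in BXH13/Cub (R2 0.613, limma adjusted p = 0.00315). Cacna1c, which had not passed over all strains, ran from 11.11 in HXB7/Ipcv over 11.31 to 11.50 in BXH13/Cub (R2 0.561, adjusted p = 0.0121). Cacna1i ran from 11.70 in HXB23/Ipcv over 12.04 to 12.28 in HXB13/Ipcv (R2 0.499, adjusted p = 0.0484), and Cacng5 from 9.28 in BXH9/Cub over 9.50 to 9.77 in BXH13/Cub (R2 0.532, adjusted p = 0.0321). The count was 13 with sequencing batch as a covariate (32.5%, with 32.1% of all genes), 9 of 32 in the version 5 table (28.1%, with 23.5%), 3 without libraries that stand apart (15.3% of all genes), 2 of 35 in the version 6 table (16.3%), 1 of 35 in the reconstruction table (12.7%) and 0 to 1 without a replicate number (8.20% to 9.12%). BXH13/Cub was the highest strain of the family in Cacna1e, Cacna1c and Cacng5.

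None of these 6 genes had separate clusters of strain means. Normal mixtures gave more than 1 cluster for 2 of the 40 members, Cacna1f and Scn1a (11.7% of all genes), and neither passed the strain test in the family (adjusted p = 0.739 and 0.240). When a further cluster had to improve the Bayesian information criterion by more than 6, 0 members and 3.36% of all genes had more than 1.

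The recombinant strains were often higher than both progenitors. In Cacna1e 26 of the 30 strain means lay above both, in Cacna1c 28, in Cacna1i 25, in Cacna1s 23 and in Scn4a 20. All 30 strains lay above both progenitors in Scn8a and in Cacna1b. Counted after these values were seen, 20 of the 40 members (15.4% of all genes) had at least 20 of the 30 strain means above both progenitors. They took in all Cav2 and all T-type pore genes, while Scn1a, Scn2a and Scn3a were not among them. The reverse held in Scn9a, where 29 of 30 strains lay below both. At least 20 of the 30 strain means were below both in 1 of the 40 members (2.5%) and in 12.9% of all genes. The upward count was 23 members (23.8% of all genes) with 1 library per animal. It fell to 12 members (12% of all genes) without BN-Lx/Cub animal 1, and to 6 (9.86%) with values adjusted for sequencing batch and 1 library per animal. The mean of the 4 neuronal markers moved the same way, with 27 of the 30 strains above both progenitors (13.85 in BN-Lx/Cub, 13.80 in SHR/OlaIpcv, family median 13.96). So did that of the 3 astrocyte markers, with 21 of the 30 (12.98 in BN-Lx/Cub, 12.97 in SHR/OlaIpcv, family median 13.07). Fewer strains lay above both in the other lists: microglia 15 (11 below both), pineal and retina 13 (17), cerebellar cells 9 (17), peripheral nerve 8 (11) and liver 7 (8). The rest were skeletal muscle 5 (13), pituitary 5 (1), oligodendrocytes 3 (14), choroid plexus 3 (6), olfactory bulb 0 (11) and blood 0 (6). The part of these lists in the count was not tested.

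**Figure D4:**
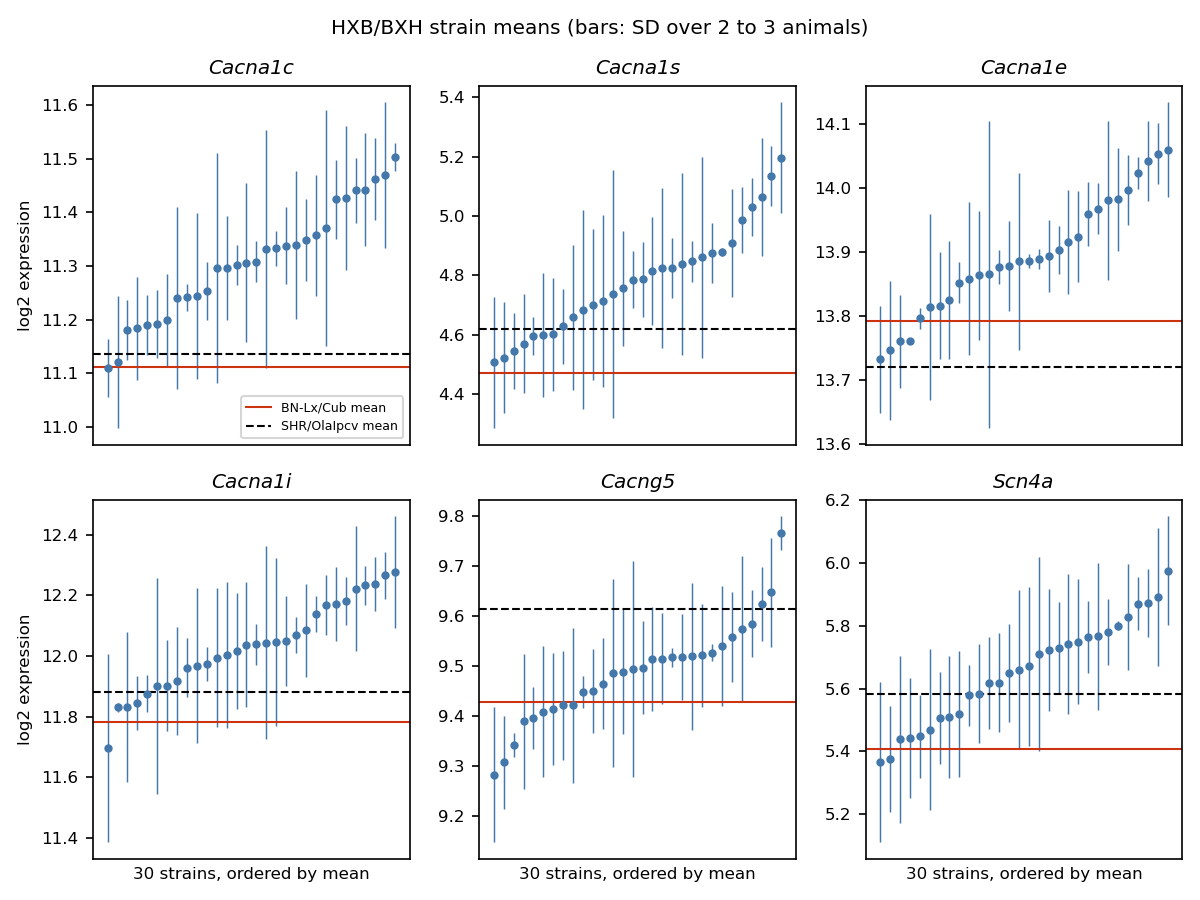
Strain means in log2 (points, with the SD over 2 to 3 animals as bars) of the 30 HXB/BXH strains, ordered by mean, for the 6 members past 5% FDR in this family, with the BN-Lx/Cub mean as a solid line and the SHR/OlaIpcv mean as a dashed line. BXH13/Cub stands above the others in Cacng5 and HXB23/Ipcv below them in Cacna1i, and most strain means lie above both lines except in Cacng5.

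Within the 16 FXLE/LEXF strains (40 animals), 2 of the 40 members passed (5.00% of all genes). Cacng7 ran from 9.65 in LEXF10B/Stm over 9.85 to 10.18 in LEXF1C/Stm (R2 0.692, limma adjusted p = 0.0470), and Scn11a from 3.78 in LEXF10B/Stm over 4.09 to 4.54 in LEXF5/Stm (R2 0.668, adjusted p = 0.0442). Neither passed with sequencing batch as a covariate (limma adjusted p = 0.0746 and 0.0594), without replicate 1 or 2, with only strains of 3 animals, with the replicate block or in the reconstruction table. Without replicate 3 only Scn11a of these 2 passed (0.0411). In the version 6 table, with 13 animals of this family, only Cacng7 of these 2 did (0.0222). Neither had more than 1 cluster. More than 1 cluster was given for 5 other members, Cacna1d, Cacna1e, Cacna2d4, Cacng5 and Scn9a (15.7% of all genes), in one case (Cacna1d) with a single strain as its own cluster.

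F344/Stm (3 animals) and LE/Stm (1 animal, assumed to vary like the other strains) gave 0 of the 40 members at 5% FDR, where 0.796% of all genes passed. No replicate stands behind LE/Stm and the spread came from the other strains, so this count describes 1 library and says nothing of whether the strains differ. At an unadjusted p under 0.05, 3 members (12.8% of all genes) passed. The largest differences from this library were 0.58 in Scn9a, 0.39 in Scn7a, 0.27 in Scn3b, -0.58 in Cacna2d4, -0.52 in Cacna1g and -0.46 in Cacng6. In the version 5 table, with 2 LE/Stm animals, 0 of 32 members and 3.69% of all genes passed 5% FDR. Cacna2d4 was at 0.0307 and Cacna1g at 0.13 there, and in the reconstruction table Cacng6 was at 0.0070, so these did not keep their direction. The LE/Stm library is the one with the highest liver genes (18.27). Of the 3 F344/Stm libraries, 2 were also among the 10 with high liver genes (10.25 and 9.97). The part of this in the differences was not tested.

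Within the 23 other inbred strains (64 animals), 4 of the 40 members passed (18.6% of all genes), namely Scn7a, Scn4b, Cacng5 and Scn4a. The count was 0 to 1 without a replicate number (6.08% to 10.7% of all genes), 2 of 35 in the reconstruction table (8.15%) and in the version 6 table (14.3%), and 14 of 32 in the version 5 table (43.8%, with 34.4% of all genes). Scn7a, the sodium sensor of glia in circumventricular organs, ran from 6.54 in BN/NHsdMcwi over 7.21 to 7.53 in SHRSP/A3NCrl (R2 0.627, limma adjusted p = 0.00341). Its R2 over all 69 strains was 0.448. Cacng5 ran from 9.28 in SR/JrHsd to 9.73 in COP/CrCrl (R2 0.604, adjusted p = 0.0158), and Scn4b from 12.07 in BN-Lx/Cub to 12.60 in GK/FarMcwi (R2 0.592, adjusted p = 0.0156). Whether a strain effect differed between the 3 panels was not tested.

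A few strains held many of the extremes. LEXF5/Stm (2 animals, batches 18 and 19) was the highest strain in 12 of the 40 members (30%), among them Cacna1b, Cacna1c, Cacna1h, Cacnb1, Cacng8, Scn8a and Scn4b, and in 6.47% of all genes. Its mean lay above the mean of the strains in 33 members (82.5%) and in 49.4% of all genes. Against the median of the other animals of its batch, the first animal was higher in 29 members (49.1% of all genes, 5 other animals) and the second in 33 (51.8%, 13 other animals). In the same strain the mean of the neuronal markers ranked 1 of 69, and that of the cerebellar cell markers 53. The astrocyte markers ranked 63, the oligodendrocyte markers 66, the microglia markers 68 and the blood genes 69. The other lists ranked between 7 (peripheral sensory neurons and nerve) and 61 (olfactory bulb). The part of these lists in the channel genes' level was not tested. Strains with 2 animals, which number 15 of the 69, were the highest strain in 21 members (52.5%) and in 41.1% of all genes. BN-Lx/Cub was the lowest strain in 7 members (17.5%, 7.22% of all genes), among them Cacna1a, Cacna2d2, Cacnb3, Cacng8 and Scn4b, and the highest in 3 (7.5%, 9.80% of all genes), Cacnb2, Cacnb4 and Scn2a.

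A minority of the pairs of channel genes had r beyond 0.6 in size across strains. Over the 780 pairs of members, Pearson's r over the 69 strain means had a median of 0.11, was above 0.6 in 75 pairs and below -0.6 in 1, Cacnb3 with Scn1a (r = -0.68). One set of pairs joined Scn2a with Cacnb4 (r = 0.82) and Cacna2d1 (0.81), and another joined Cacna1h with Cacng8 (0.89), Cacnb1 (0.87) and Cacna1i (0.85). Of the 76 pairs, 73 had the same sign of r over the 12 libraries of SHR/OlaIpcv animal 1, which share one animal (53 with r beyond 0.6 in size), and 76 over deviations of the 192 animals from their strain means. In those 12 libraries r was 0.93 for Scn2a with Cacnb4 and 0.94 for Cacna1h with Cacng8. One of them, the batch 11 library, had high liver genes (12.90). It held the highest value of Scn2a (14.37) and Cacnb4 (13.48) and the lowest of Cacna1h (9.08) and Cacng8 (7.64). Its part in these r was not tested. The 780 values of r over strain means correlated at 0.69 with those over the repeat libraries and at 0.92 with those within strains. Pairs share genes and all values share library preparation, so these are descriptions without a test.

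**Figure D5:**
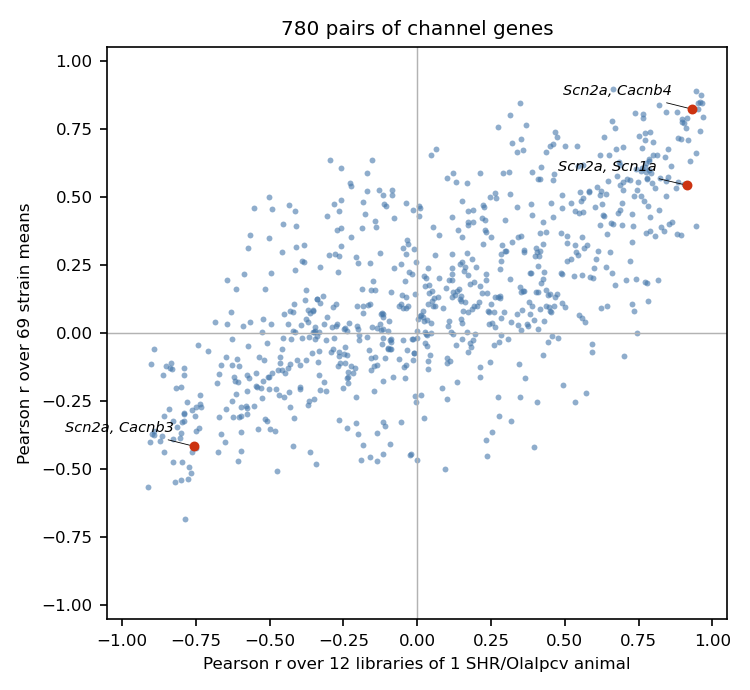
Pearson's r of each of the 780 pairs of channel genes over the 69 strain means (vertical axis) against r over 12 libraries of one SHR/OlaIpcv animal (horizontal axis), with Scn2a marked in its pairs with Cacnb4, Scn1a and Cacnb3. The points rise from lower left to upper right, with r = 0.69 between the axes, and Scn2a with Cacnb4 lies high on both. The 12 libraries include that of batch 11, which had high liver genes.

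At the level of transcripts, 83 RefSeq transcripts belonged to 38 of the 40 members, and 6 of the 83 passed 5% FDR in the limma F-test over strains (7.23%, with 13.4% of all 45918 transcripts). Without replicate 1 none of the 6 passed, and 0, 4 and 1 of the 83 passed without replicate 1, 2 and 3 (5.09%, 4.96% and 7.21% of all transcripts). None had an R2 above 0.7. Of the 6, 3 belonged to genes that did not pass as a whole, namely Scn3b, Cacnb4 and Scn7a, and the others to Scn8a, Cacng5 and Cacna1a; they were named after their values were seen. One of 4 Scn3b transcripts, XM_006243103.2, was highest in LH/MavRrrc, 10.75 ± 0.10 (SD, n = 3), and lowest in HXB27/Ipcv, 9.67 ± 0.08 (SD, n = 3; R2 0.572, limma adjusted p = 0.000269), while the Scn3b gene had an R2 of 0.451 (adjusted p = 0.0820). It passed without replicate 2 (0.0150) but not without 1 or 3 (0.156 and 0.0987). In another Scn3b transcript, XM_006243102.2, LH/MavRrrc was the lowest strain with 6.94 ± 1.20 (SD, n = 3), and that transcript did not pass (adjusted p = 0.204). One of 3 Cacnb4 transcripts, NM_001105733.1, was highest in LEXF10A/Stm, 11.30 ± 0.16 (SD, n = 3), and lowest in HXB1/Ipcv, 10.71 ± 0.13 (SD, n = 3; R2 0.531, adjusted p = 0.0158), and it did not pass with sequencing batch as a covariate (0.0836) or without any replicate number (0.174, 0.471 and 0.304). The Scn8a transcript was highest in LEXF5/Stm, 12.49 ± 0.52 (SD, n = 2), and lowest in BN-Lx/Cub, 10.49 ± 0.77 (SD, n = 3; R2 0.535, adjusted p = 0.00291), the same strain at the top as for the gene, and it passed without replicate 3 (0.0355) but not without 1 or 2 (0.459 and 0.172). Reads shared between isoforms were split by the authors' quantification, so transcript levels of one gene are not independent.

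Of 40 genes that act with these channels (calmodulins, Rem, Stac and Fgf modulators, ankyrins and other anchors, release-site proteins, the NALCN complex and HCN channels), 38 were in the table and 16 passed the limma F-test over strains (42.1%, with 36.8% of all genes). The partners' share was 28.9% without libraries that stand apart (33.4% of all genes) and 31.6% with only strains of 3 animals (32.1%), and without replicate 1, 2 and 3 it was 2.63%, 2.63% and 28.9% (15.7%, 14.9% and 29.3%). The highest R2 was that of Gem, a small GTPase that lowers calcium current, at 0.759 (adjusted p = 8.11e-16), followed by Unc80 of the NALCN complex (0.534, adjusted p = 0.00648) and Cachd1, an alpha2delta-like protein (0.524, adjusted p = 0.00326). Gem thus had a higher R2 than any channel gene, and it was the partner that passed without replicate 1 and without replicate 2. The HCN pacemaker genes Hcn2 and Hcn4 passed narrowly (adjusted p = 0.0498 and 0.0491), and not without libraries that stand apart (0.0835 and 0.117). No partner gene passed between WAG/RijCrl and the 7 comparison strains or between BN-Lx/Cub and SHR/OlaIpcv.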

How the data were processed

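Log2 expression tables deposited by the authors were used, with the version 7.1 RefSeq gene table as the main one, the RefSeq transcript table for isoforms, and the version 7.1 reconstruction, version 6 and version 5 Ensembl gene tables as alternatives, which held 35, 35 and 32 of the 40 members. Per the labels, the authors' tools included cutadapt 1.9.1, Bowtie2, HISAT2, StringTie, RSEM and DESeq2. The study describes removal of ribosomal reads, alignment to strain-specific genomes, removal of 1 factor of unwanted variation and a regularized log, without naming a table version. The steps and build specific to version 7.1 are not given in the sources used here. Spike-ins (73 features) were dropped and libraries of one animal averaged. Strain effects and contrasts were tested in limma 3.58.1 (R 4.3.3) over strains with 2 or more animals (F344/Stm against LE/Stm over all strains, with LE/Stm at 1 animal), with Benjamini-Hochberg adjustment over all features; scripts were tested on simulated data. Strain means were clustered with mclust 6.1.1 (1 to 3 clusters, equal variance). WAG/RijCrl was compared with the equal-weight mean of 7 inbred strains with animals in batches 15 to 17. Transcripts were matched to symbols by RefSeq identifier (71.3% of 45918).

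Genes were named by rule: the 8 members above the table median with the highest R2 past 5% FDR, the 3 largest differences each way where none passed, a list of epilepsy and synaptic channel genes, and the 3 partner genes with the highest R2; further genes were named after their values were seen. Values of 1 member and 1 partner gene are not reported here, and both are in the counts. The members and lists were chosen with earlier results of these data known. P-values set the differences between strains against the spread between animals of a strain. That spread also takes in differences between libraries and batches.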

Additional observations from a re-analysis of the deposited data

How the results depend on the processing

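Counts of called members depended on the setting. Over all strains (13), sequencing batch as a covariate with 1 library per animal gave 28 (56.1% of all genes) and 26 of 32 passed in the version 5 table (63.6%), and leaving out a replicate number gave 3 to 7 (14.9% to 29.3%); the same settings gave 26 partner genes with batch and 1 to 11 without a replicate (16), and 17 and 0 to 4 transcripts (6, with 20.7% and 4.96% to 7.21% of all transcripts). In HXB/BXH (6), batch gave 13 (32.1% of all genes), only genes above the table median 3 (14.7%), leaving out libraries that stand apart 3 (15.3%), 9 of 32 passed in the version 5 table (23.5%), 1 in the reconstruction table (12.7%), 2 in the version 6 table (16.3%), and leaving out a replicate 0 to 1 (8.20% to 9.12%). In FXLE/LEXF (2), batch, strains with 3 animals and the reconstruction table gave 0 (5.31%, 2.52% and 1.78% of all genes). Genes above the median gave 1 (4.08%), and leaving out a replicate 0 to 2 (0.475% to 8.54%). In the version 6 table, with only 13 animals of this family, 7 passed (15.5%). In the inbred strains (4), genes above the median, the reconstruction table and the version 6 table gave 2 (11.9%, 8.15% and 14.3% of all genes), 14 passed in the version 5 table (34.4%), and leaving out a replicate 0 to 1 (6.08% to 10.7%). For BN-Lx/Cub against SHR/OlaIpcv (0), batch gave 3 (7.51% of all genes), genes above the median 1 (4.53%), leaving out an animal 0 to 2 (0.968% to 8.52%), and, chosen after seeing the data, leaving out the batch 11 library 1 (5.29%). WAG/RijCrl stayed at 0 called members in the alternatives run (0.221% to 1.09% of all genes). More than 1 cluster was given for 0 members in both families with the stricter criterion (3.36% of all genes in HXB/BXH and 2.28% in FXLE/LEXF), for 0 in HXB/BXH with the reconstruction table (13.6%), and for 1 to 4 (HXB/BXH, 10.2% to 12.6%) and 8 to 14 (FXLE/LEXF, 21.8% to 31.8%) without a replicate. The cause of these changes was not tested.

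Differences that changed sign, none of them called, were Cacng4 in WAG/RijCrl (-0.0115, reconstruction), Cacna2d4 (-0.10, batch), and Cacng5 (0.11, reconstruction; 0.15, version 5) between BN-Lx/Cub and SHR/OlaIpcv, and Cacng6 (0.0070, reconstruction), Cacna2d4 (0.0307, version 5) and Cacna1g (0.13, version 5) between F344/Stm and LE/Stm. The replicate block gave 14 members over all strains (38.2% of all genes), 7 in HXB/BXH (19.1%), 0 in FXLE/LEXF (4.3%) and 3 in the inbred strains (17.1%); deviations of animals with the same number had a median correlation of 0.01, so the numbers do not pair animals. SHR/OlaIpcv replicates 2 and 3 were not in the main table, and the version 5 table held too few FXLE/LEXF strains, so these alternatives were not run.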

Other observations

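Several members lie within 1 Mb of the next member on their chromosome in the RefSeq annotation, whatever other genes lie between them. Among the members, Scn3a, Scn2a, Scn1a, Scn9a and Scn7a follow in this order on chromosome 3. Their r over the 69 strain means was 0.61 for Scn3a with Scn2a and 0.54 for Scn2a with Scn1a. It was 0.28 for Scn1a with Scn9a and 0.46 for Scn9a with Scn7a. Over the 12 libraries of SHR/OlaIpcv animal 1, the first 2 pairs had r of 0.76 and 0.91, and the last 2 had -0.21 and -0.49. Over the 30 HXB/BXH strain means the 4 pairs had r of 0.46, 0.46, 0.52 and -0.09. For Scn2b with Scn4b on chromosome 8, r was 0.45 over strain means, 0.28 over those of HXB/BXH and -0.01 over those libraries. These are descriptions over few libraries, among them the batch 11 library with high liver genes.

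BXH13/Cub was above the mean of the strains in 37 of the 40 members (48.8% of all genes), with a median difference of 0.13 log2, and HXB23/Ipcv in 6 (48.7% of all genes), with a median of -0.14. Both are strains of the same family.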
